A study of Mus musculus with 25 samples.

Results

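The clock output set described here has 9 member genes: Dbp, Tef, Hlf, Nfil3, Ciart, Bhlhe40, Bhlhe41, Usp2 and Noct. They were chosen by symbol, as genes known to be driven by the circadian clock in liver together with the gene for nocturnin, and were matched to 9 of the 41388 gene identifiers in the count files. The rule also set them against Arntl, the gene for the clock activator BMAL1, and Noct was already known to differ between the wild-type groups with and without the NAMPT vector when the set was drawn up. Values for that contrast, for the other contrasts built on the WD WT NAMPT libraries, and for every relation to Arntl are therefore descriptions without a test. Where a count of members past the threshold is given for them, it only describes the fit. An adjusted p is printed in these contrasts only for Sirt1 and Nampt, which are not members.

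Liver RNA from 25 mice aged 20 weeks (C57B/6J in the labels) was sequenced, 1 library per mouse. SIRT1 liver knockout mice (LKO) carried floxed Sirt1 alleles and a Cre driven by the hepatocyte albumin promoter, and wild-type (WT) littermates carried the floxed alleles without Cre. All mice received an AAV8 vector with the thyroxine binding globulin promoter, which is active in hepatocytes, either empty (EV) or, by the sample titles and the series text, encoding NAMPT, the rate-limiting enzyme of NAD salvage. The treatment text of the labels instead names SIRT1 as the insert, and the titles are followed here. Mice were about 8 weeks old before treatment, and treatment lasted 12 weeks. The groups were chow-fed WT with empty vector (chow WT EV, n = 3), and on a Western diet (WD) WT with empty vector (WD WT EV, n = 6), WT with NAMPT (WD WT NAMPT, n = 6), LKO with empty vector (WD LKO EV, n = 5) and LKO with NAMPT (WD LKO NAMPT, n = 5). The labels give no hour of tissue collection, so differences in clock phase at collection and effects of a group cannot be told apart.

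The liver clock is a feedback loop in which CLOCK and BMAL1 activate genes through E-boxes, and the PER, CRY and REV-ERB proteins made from those genes repress it. The loop passes its rhythm on through output factors. DBP, TEF and HLF are activators that bind D-box sites, NFIL3 represses through the same sites, and CIART, BHLHE40 and BHLHE41 act back on CLOCK and BMAL1 as repressors. USP2 is a deubiquitinase with rhythmic expression, and nocturnin is a rhythmic enzyme that removes a phosphate from NADP(H), giving NAD(H).

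The promoter windows of 5 members held motifs through which clock factors or cyclic AMP signalling are known to act. In RefSeq windows of the GRCm38.p6 assembly that run from 250 bases before to 50 bases from the start site, 9 windows were found for 8 members, and Bhlhe40 had no entry. Searches on both strands covered 5 motifs: the E-box CACGTG, the variant E-box CACGTT, the D-box TTANGTAA, the ROR element TAGGTCA and the cyclic AMP response element (CRE) TGACGTCA. The E-box was in windows of 3 of these 8 members, against 8.09% of all 27025 genes with a window and 7.15% of all 32851 windows, with 3 copies in the single Ciart window. The stretches below are shown because they hold these matches, which are in capitals, each running 5′ to 3′ on the strand of its gene.
Ciart, 3 E-boxes, chr3:95882257-95882354 (minus strand): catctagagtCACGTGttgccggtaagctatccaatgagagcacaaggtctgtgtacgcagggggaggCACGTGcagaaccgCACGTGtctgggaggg
Tef, E-box, chr15:81802536-81802561 (plus strand): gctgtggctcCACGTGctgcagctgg
Tef, E-box of the second window, chr15:81811266-81811291 (plus strand): cctggcccagCACGTGtctacatcgt
Bhlhe41, E-box, chr6:145865558-145865583 (minus strand): gtacgttccgCACGTGagctgggtgc
Nfil3, ROR element read in reverse, chr13:52981040-52981061 (minus strand): cgctcggaacTGACCTActaac
Hlf, CRE, chr11:90390918-90390936 (minus strand): gtgcgggcccTGACGTCAc
In Ciart the E-boxes began 116, 58 and 44 bases before the start site, in Tef 127 and 138 bases before the start sites of its windows, and in Bhlhe41 153 bases before. The ROR element of Nfil3, a site that REV-ERB repressors and ROR activators are known to share, began 12 bases before its start site, and 2.61% of all windows held this motif. The CRE of Hlf began 9 bases before its start site, and 1.79% of windows held one. The windows of Noct, Dbp and Usp2 held none of the 5 motifs, and the variant E-box and the D-box, in 4.68% and 2.32% of all windows, were in no member's window. A match is a description of these letters, not of binding.

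Total counts were 20166175 to 32937326 per library. Sirt1 counted over all its exons lay between 7.16 and 11.1 CPM across the 25 libraries (counts scaled to the library total and corrected for composition by the trimmed mean of M-values, TMM). It was not called lower in LKO than in WT livers with the empty vector (-0.07 ± 0.10 log2, SE, limma adjusted p = 0.990) or with NAMPT (0.19 ± 0.11, adjusted p = 0.237). Such a sum does not separate the floxed part from the rest, so it does not check the genotype labels. Nampt differed by 0.34 ± 0.16 (log2, SE) between the WT groups labelled NAMPT and EV (limma adjusted p = 0.144) and by 0.41 ± 0.16 between the LKO groups (adjusted p = 0.403). Its means were higher in the groups labelled NAMPT, at 59.5 against 47.4 CPM in WT and 79.9 against 56.1 CPM in LKO livers, but the ranges overlapped and neither difference was called. All 6 hepatocyte markers were detected in every group, and their summed level was 70339 to 83767 CPM in chow livers and 45579 to 72073 CPM in Western diet livers.

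All 9 members passed the filter on low counts, which kept 14065 genes. Levels below are TMM-scaled CPM. Per length (RPKM, scaled the same way), the median level over the 25 libraries was highest for Bhlhe40 at 29.2, then Tef at 12.6, Dbp at 12.4, Nfil3 at 8.33 and Hlf at 8.07. Noct at 2.24, Usp2 at 1.91, Bhlhe41 at 1.11 and Ciart at 1.08 were lower on the same scale. Between its lowest and highest library Dbp differed 103-fold in CPM, Ciart 69.4-fold, Bhlhe41 33.9-fold and Usp2 30.6-fold, whereas Hlf differed 3.97-fold.

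**Figure D1:**
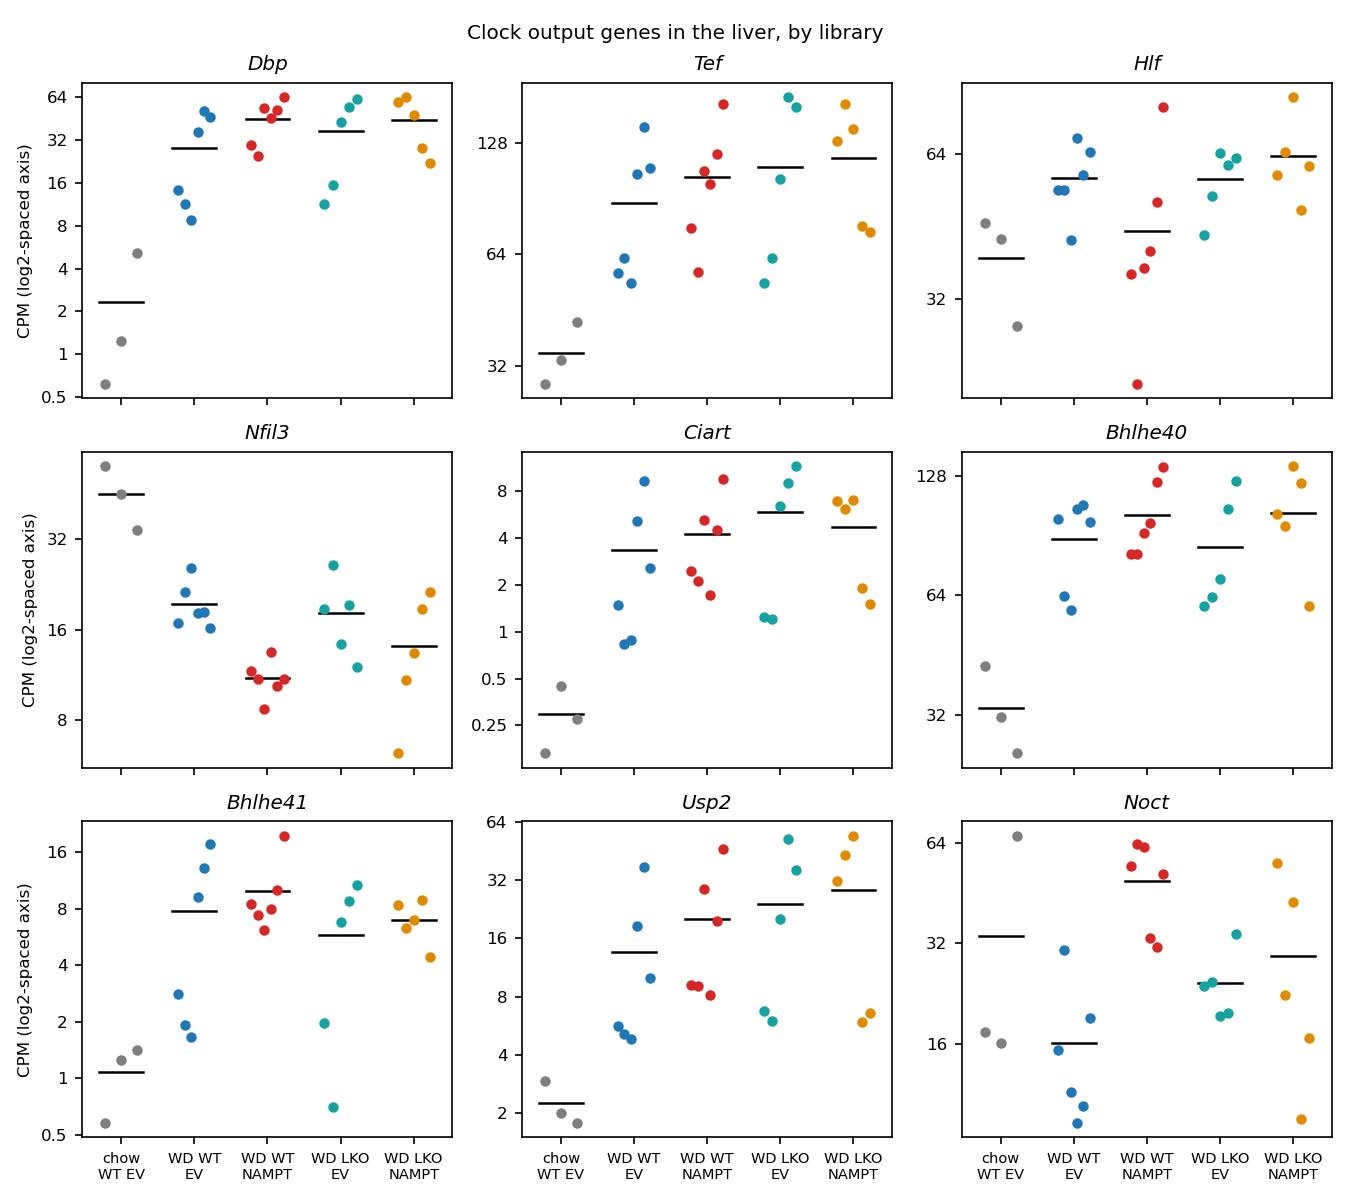
TMM-scaled CPM of the 9 members in each of the 25 libraries, on log2-spaced axes with a separate range per gene. Points are mice and horizontal lines are group means. Chow livers lie below all WD WT EV livers for Dbp, Tef, Ciart, Bhlhe40, Bhlhe41 and Usp2 and above them for Nfil3.

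The comparison of WD WT EV with chow WT EV asked how the output genes differed with diet. On the Western diet Dbp, Tef and Bhlhe40 rose by 1.26 to 4.04 on the log2 scale, and Nfil3 fell by 1.27. These 4 of 9 members passed an adjusted p of 0.05 (limma with library quality weights, Benjamini-Hochberg over all genes), 3 higher and 1 lower, against 22% of all genes tested. Libraries of both groups did not overlap for 7 of 9 members, 6 higher and 1 lower, against 16.1% of genes. The median log2 difference over the 9 members was 1.27, against -0.0047 over all genes. The WD WT EV libraries also serve in the contrast in which Noct was already known to differ. The summed hepatocyte markers were at 50679 to 67693 CPM in these WD WT EV livers, below all chow livers. The macrophage markers summed to 238 to 347 CPM against 181 to 225 CPM in chow livers. The markers of a list did not all move alike. Mean levels of Alb, Cps1, Tat and Cyp3a11 were lower than on chow, but Apoa1 was at 6440 against 6596 CPM and Ttr at 5672 against 5040 CPM. Of the macrophage markers, Cd5l lay above all chow livers (83.9 to 142 against 52.4 to 76.7 CPM), and the ranges of Clec4f, Vsig4, Adgre1 and Cd68 overlapped. In bulk liver, a change in the number of cells of a type and a change in RNA per cell cannot be told apart, and the part of these differences in the member values was not tested.

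Dbp, which encodes the founding member of the PAR bZIP activators, was at 0.62, 1.25 and 5.13 CPM in the 3 chow livers, from 15 to 130 counts. In WD WT EV livers its lowest level was 8.79, its median 25.3 and its highest 51.3 CPM. No Western diet liver of any group fell into the chow range. The fitted difference was 4.04 ± 1.17 (log2, SE), 16.5-fold, with adjusted p = 0.0157. The call was lost without chow replicate 2 (adjusted p = 0.225) and also without chow replicate 1, where the difference was 2.87.

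Tef, a second PAR bZIP activator, was at 28.6, 33.1 and 42.1 CPM in chow livers. The lowest WD WT EV level was 53.6, the median 84.0 and the highest 141 CPM, all above chow. Tef rose by 1.27 ± 0.31 on the log2 scale (2.41-fold, adjusted p = 0.0051), but not past the threshold without chow replicate 1 (adjusted p = 0.142) or chow replicate 2. Without these replicates, 1 at a time, 2 members stayed called, Bhlhe40 and Nfil3. With Arntl as a covariate, given as a description, the Tef difference was 0.087, and those of Dbp, Bhlhe40 and Nfil3 were 2.35, 0.75 and -0.72. Hlf, the third member of that family, was at 46.1, 42.6 and 28.1 CPM on chow and between 42.5 and 69.1 CPM in WD WT EV livers, which overlap. Its difference of 0.42 ± 0.17 did not pass the test (adjusted p = 0.0699).

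Nfil3, the repressor at D-boxes, was at 55.7, 45.0 and 34.2 CPM on chow. In WD WT EV livers it ran from 16.2 through a median of 18.2 to 25.7 CPM, all below chow. Nfil3 fell by 1.27 ± 0.21 on the log2 scale, 2.41-fold lower (adjusted p = 0.000164), and was called with each library left out. Within the D-box group the activators Dbp and Tef and the repressor Nfil3 differed in opposite directions.

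Among the repressors of CLOCK and BMAL1, Bhlhe40 was at 42.5, 31.6 and 25.6 CPM on chow and at 58.7 to 108 CPM (median 98.5) in WD WT EV livers. Its rise of 1.26 ± 0.22 (2.39-fold, adjusted p = 0.000319) was called with each library left out. Ciart was at 0.165, 0.445 and 0.276 CPM on chow, only 4 to 10 counts per library, and at 0.831 to 9.30 CPM in WD WT EV. Bhlhe41 was at 0.579, 1.25 and 1.42 CPM on chow and at 1.66 to 17.8 CPM in WD WT EV. For both genes every WD WT EV liver was above every chow liver, yet the differences of 2.60 ± 1.43 and 2.13 ± 0.98 did not pass the test (adjusted p = 0.199 and 0.123). The edgeR quasi-likelihood test called both, at adjusted p = 0.0312 for Ciart and 0.025 for Bhlhe41.

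Usp2 was at 2.94, 2.003 and 1.78 CPM on chow and at 4.83 to 37.5 CPM in WD WT EV, again without overlap. The difference of 1.93 ± 1.17 was not called by limma (adjusted p = 0.245) or edgeR (2.60, adjusted p = 0.0764) but was by DESeq2 (2.62, adjusted p = 0.0164). Noct stood apart from this pattern. In chow livers it was at 17.4, 16.1 and 67.3 CPM, so that 1 chow liver held the highest level of the 25 libraries, and WD WT EV livers ran from 9.26 to 30.6 CPM. Its difference of -0.26 ± 0.39 was not called (adjusted p = 0.675). It was -0.01 without chow replicate 3 and -1.05 without chow replicate 2, and -1.07 with both edgeR and DESeq2 (adjusted p = 0.146 and 0.156).

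**Figure D2:**
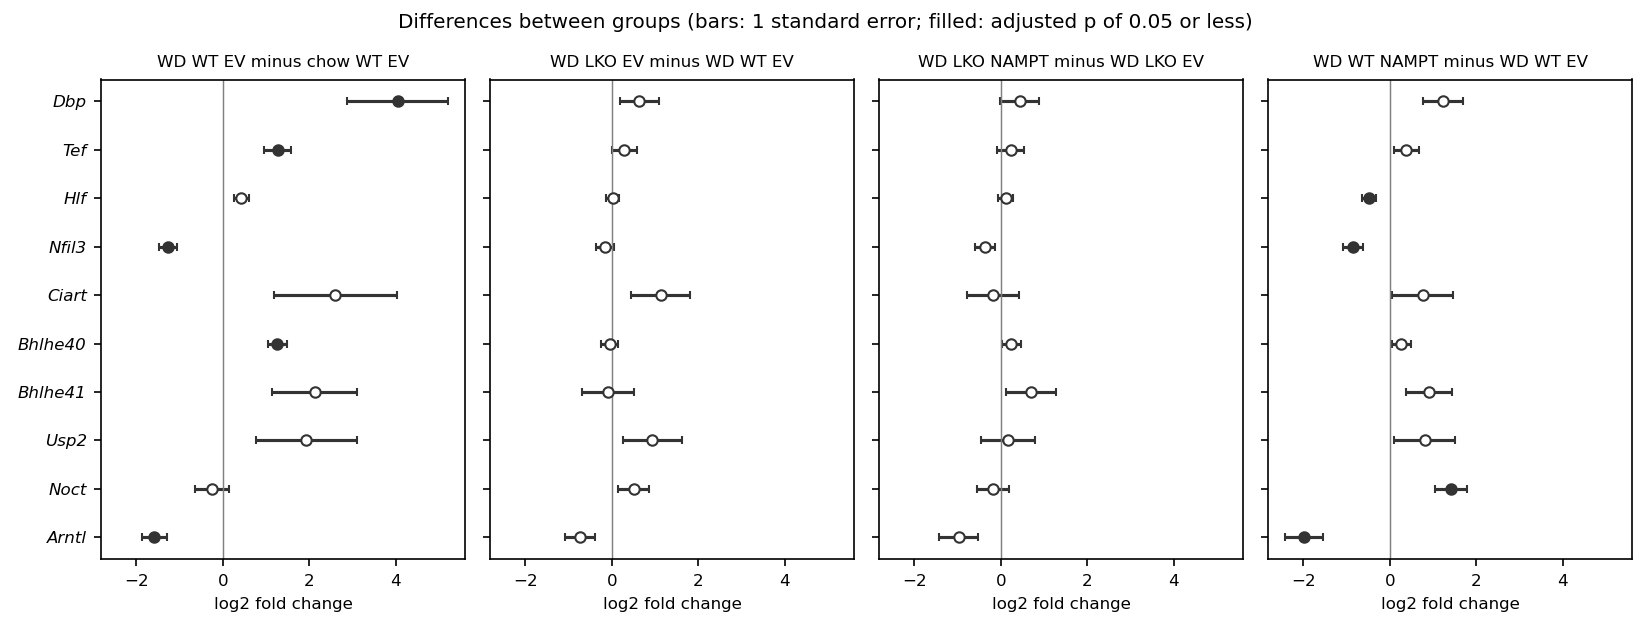
Fitted log2 fold changes of the 9 members and Arntl in 4 comparisons, with bars of 1 standard error. Filled points passed an adjusted p of 0.05. Dbp, Tef, Bhlhe40, Nfil3 and Arntl are filled in the diet panel, no gene is filled in the LKO EV and LKO NAMPT panels, and Noct, Hlf, Nfil3 and Arntl are filled in the panel of the WT vectors, which is a description.

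Other gene lists were counted in the same fit, in which 22% of all genes were called. Of 12 core clock genes, 4 were called higher, 4 lower and 4 were not called. Nr1d1, which encodes the repressor REV-ERB alpha, rose by 1.197 ± 0.28 and Per1 by 1.36 ± 0.37, while Arntl fell by 1.58 ± 0.30 and Npas2, which encodes a partner of BMAL1, by 1.59 ± 0.39 (log2 differences, SE). Of 7 liver genes known as targets of the PAR bZIP factors, 1 was called higher and 1 lower, a share near that of all genes, as it was for the next lists of 7: Alas1, the first enzyme of haem synthesis, rose by 1.396 ± 0.33, and the cytochrome P450 gene Cyp2b10 fell by 2.74 ± 0.34. Among 7 other cycling liver genes, 2 were called higher, Rgs16 by 4.49 ± 0.88 and Gys2, the liver glycogen synthase, by 0.60 ± 0.14. Of 7 genes responsive to glucocorticoids and fasting, Fkbp5 rose by 1.19 ± 0.35 and the tyrosine aminotransferase gene Tat fell by 0.95 ± 0.21.

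The comparison of WD LKO EV with WD WT EV asked whether loss of hepatocyte SIRT1 changed the set. Of the 9 members 0 passed the adjusted p by limma, edgeR or DESeq2, and 0 had an unadjusted p under 0.05, beside 0.00711% of all genes called. In 0 of 9 members were the libraries of the groups apart, against 0.59% of genes. The largest difference was that of Ciart, 1.13 ± 0.68 (adjusted p = 0.872, 95% interval -0.28 to 2.53), so that a change of several fold lay within the interval. The WD WT EV libraries are again those of the contrast in which Noct was known to differ. Noct differed by 0.50 ± 0.36 (interval -0.25 to 1.25), Nfil3 by -0.17 ± 0.21 (interval -0.60 to 0.27) and Hlf by 0.02 ± 0.16 (interval -0.30 to 0.34).

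In LKO livers the NAMPT vector was compared with the empty vector. Again 0 of 9 members passed the adjusted p by limma, edgeR or DESeq2, and 0 had an unadjusted p under 0.05 in the limma fit. Over all genes 0.00711% were called and 1.15% had libraries that did not overlap, and for members the latter count was 0. Noct, chosen for its difference between WT groups, was at 23.8, 24.5, 19.3, 19.7 and 34.0 CPM in WD LKO EV livers and at 55.7, 22.4, 42.5, 9.52 and 16.7 CPM in WD LKO NAMPT livers. The LKO NAMPT livers thus held values both above and below all LKO EV livers. Its difference was -0.19 ± 0.37 (log2, adjusted p = 0.903, interval -0.95 to 0.57). Its sign was not settled: the group means were 24.3 and 29.3 CPM, and the difference was 0.28 with edgeR and 0.27 with DESeq2.

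Dbp was at 11.4, 15.5, 42.8, 53.9 and 62.1 CPM in WD LKO EV and at 59.2, 63.9, 47.7, 27.8 and 21.8 CPM in WD LKO NAMPT livers. Both groups held high and low livers, and the difference was 0.44 ± 0.45 (adjusted p = 0.798). Nfil3 was at 18.8, 26.1, 14.4, 19.3 and 12.0 CPM against 6.21, 10.9, 13.3, 18.7 and 21.3 CPM. These ranges overlap, and the difference of -0.37 ± 0.23 was not called (adjusted p = 0.647, interval -0.84 to 0.11). The remaining members differed by -0.19 (Ciart) to 0.69 (Bhlhe41). With a library left out, the difference ran from 0.035 to 0.97 for Bhlhe41 and from 0.072 to 0.66 for Dbp.

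The WT groups with and without the NAMPT vector formed the contrast in which Noct was already known to differ, and the values are given without a test. Noct was at 9.26, 10.4, 11.5, 15.4, 19.1 and 30.6 CPM in WD WT EV livers and at 31.2, 33.2, 51.6, 54.8, 62.1 and 63.4 CPM in WD WT NAMPT livers. Every NAMPT liver was above every EV liver, by a small step between 30.6 and 31.2 CPM. The group means were 16.03 ± 8.003 and 49.4 ± 14.05 CPM (SD, n = 6 each), and the fitted difference was 1.41 ± 0.36 (log2, SE), 2.66-fold.

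Nfil3 was lower, at 16.2 to 25.7 CPM with EV and 8.72 to 13.5 CPM (median 10.98) with NAMPT, also without overlap. The fitted difference was -0.84 ± 0.23. Hlf differed by -0.48 ± 0.16, with 42.5 to 69.1 CPM in EV livers and 36.1, 21.2, 37.0, 40.2, 50.9 and 80.4 CPM in NAMPT livers, where 4 lay below the EV range and 1 above it. Hlf passed the threshold in the fit reported here and with Arntl as a covariate, but with none of the other alternatives, edgeR and DESeq2 included, and in 4 of 12 fits without 1 library each. The other differences were 1.23 ± 0.46 for Dbp, 0.90 ± 0.53 for Bhlhe41, 0.80 ± 0.69 for Usp2, 0.76 ± 0.70 for Ciart, 0.38 ± 0.30 for Tef and 0.27 ± 0.21 for Bhlhe40. In the same order these differences were smaller with edgeR, at 0.68, 0.35, 0.56, 0.33, 0.23 and 0.19, and likewise with DESeq2 (0.67 for Dbp and 0.34 for Ciart). Leaving out a library gave 0.49 to 1.19 for Bhlhe41, 0.43 to 1.26 for Usp2 and 0.29 to 1.17 for Ciart.

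As a description of this fit only, 1 of 9 members passed the threshold higher (Noct, the gene already known) and 2 lower (Hlf and Nfil3), beside 13.4% of all genes. Libraries did not overlap for 2 of 9, Noct among them, beside 0.96% of genes. The count past the threshold was 1 without WD WT EV replicate 2 or WD WT NAMPT replicate 2, and 0 without WD WT NAMPT replicate 3. The Noct difference stayed between 1.195 and 1.81 with each library left out. Scaling by library size alone moved the median log2 difference of all genes to 0.16, and the called members were then Noct and Dbp higher and Nfil3 lower. With Arntl as a covariate the Noct difference was 1.399 and that of Nfil3 was -0.20, neither past the threshold. Those of Ciart, Usp2, Hlf and Tef were -2.30, -1.996, -0.86 and -1.03, past it, beside 2411 of 14065 genes in that fit. Of 12 core clock genes, 4 were called lower, among them Arntl (-1.99 ± 0.44), Npas2 (-1.98 ± 0.64) and Clock (-0.43 ± 0.13).

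Markers of some other cell types moved with this contrast. The summed level of 5 Kupffer cell and macrophage markers, all detected, was 238 to 347 CPM (median 282) in WD WT EV livers and 225 to 624 CPM (median 501) in WD WT NAMPT livers. Across the 25 libraries, deviations of Noct from its group means followed those of this sum with r = 0.38 (Spearman 0.48) and those of Hlf with r = -0.68 (Spearman -0.64). The sum of 5 neutrophil markers was low but moved in the same contrast, from 1.16 to 5.61 CPM (median 2.62) in WD WT EV livers, where Ly6g was at 0, to 1.35 to 15.5 CPM (median 9.49) in WD WT NAMPT livers. Its deviations were related to those of Hlf with r = -0.70 and of Tef with r = -0.57, and to those of Noct with r = 0.11. Nfil3 had r = -0.27 with the macrophage sum and -0.07 with the neutrophil sum. Stellate cell markers (medians 316 CPM with EV and 375 CPM with NAMPT) and T and B cell markers (2.89 and 4.34 CPM) had higher sums with overlapping ranges. Sums for sinusoidal endothelium (medians of 189 CPM in both groups) and cholangiocytes (12.0 and 11.7 CPM) were close. The part of these cells in the member values was not tested.

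The groups labelled WD LKO NAMPT and WD WT NAMPT are set side by side as a description, since the latter libraries are those in which Noct was already known to differ. Hlf was at 49.1 to 84.4 CPM in the LKO group, and differed by 0.60 ± 0.17. Noct differed by -1.10 ± 0.36. The summed macrophage markers were at 236 to 499.6 CPM (median 311) in the LKO group, below the median of 501 CPM in the WT group, and the neutrophil markers had medians of 3.53 and 9.49 CPM. The part of these cells in the differences was not tested. In this fit Hlf passed the threshold, 1 of 9 members beside 7.96% of genes, and 0 of 9 members had libraries that did not overlap, beside 1.39% of genes. Hlf did not pass it with edgeR or DESeq2. No member passed it without WD WT NAMPT replicate 1, 2 or 3 or WD LKO NAMPT replicate 2, 3 or 5, and 2 did, Noct and Hlf, without WD WT NAMPT replicate 5 or 6 or WD LKO NAMPT replicate 1.

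The difference between the vector effects in LKO and WT livers contains the same WT contrast and is likewise a description. It was -1.60 ± 0.51 (log2) for Noct and 0.58 ± 0.23 for Hlf. In this fit 0 of 9 members passed the threshold by limma or edgeR, beside 0.00711% of genes, and DESeq2 gave no adjusted p for them. Noct passed it without WD LKO NAMPT replicate 1. Ordered by mean level, Noct ran from 16.03 CPM in WD WT EV through 24.3 in WD LKO EV, 29.3 in WD LKO NAMPT and 33.6 in chow WT EV to 49.4 in WD WT NAMPT. Only the step from WD WT EV to WD LKO EV exceeded the larger SD of its groups, and the ranges overlapped at every step.

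Genes with roles close to that of nocturnin were set beside it for the WT groups, as a description. The differences of 5 genes for related nucleases (Cnot6, Cnot6l, Angel1, Angel2 and Pde12) ran from -0.21 to 0.01. For the NAD kinases, which carry out the reaction opposite to that of nocturnin, the difference was -0.36 ± 0.09 for the mitochondrial Nadk2 and -0.08 for the cytosolic Nadk.

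Within groups the members varied more from mouse to mouse than most genes. The pooled SD of log2(CPM + 0.5) within groups was 1.18 for Usp2, 1.03 for Ciart, 0.98 for Bhlhe41, 0.92 for Dbp and 0.71 for Noct, and these 5 members lay above the 95th percentile of all genes. The median gene had an SD of 0.25. Tef, at 0.58, was at percentile 94.0, and Nfil3, Bhlhe40 and Hlf, at 0.40, 0.40 and 0.39, lay between percentiles 80.8 and 82.2.

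Most members apart from Noct varied together. In WD WT EV livers Dbp was at 14.1, 11.3 and 8.79 CPM in replicates 1, 2 and 4 and at 36.4, 51.3 and 46.0 CPM in replicates 6, 7 and 8. Usp2 was at 5.65, 5.10 and 4.83 CPM in the former and at 18.6, 37.5 and 9.98 CPM in the latter. Arntl had the opposite order, at 18.1, 15.8 and 13.8 CPM in the former and at 10.1, 4.88 and 9.98 CPM in the latter. WD LKO EV livers were split alike. In their replicates 1 and 2 Dbp was at 11.4 and 15.5, Usp2 at 6.76 and 5.97 and Arntl at 13.4 and 13.7 CPM. In replicates 3 to 5 Dbp was at 42.8 to 62.1, Usp2 at 20.2 to 52.0 and Arntl at 3.87 to 5.78 CPM. In the order of the samples, the low-Dbp livers of both EV groups on the Western diet stand together, before the high-Dbp ones. What this order reflects is not given in the labels. In WD LKO NAMPT livers Usp2 was at 31.7, 43.1 and 54.3 CPM in replicates 1 to 3 and at 5.92 and 6.58 CPM in replicates 4 and 5, where Arntl was at 6.51 and 8.48 CPM, above its 1.81, 2.01 and 4.01 CPM in the other livers.

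Deviations from group means were set against those of Arntl over the 25 libraries, as a description. Pearson's r was -0.90 for Tef (Spearman -0.89), -0.83 for Ciart (-0.83), -0.82 for Dbp (-0.82) and -0.80 for Usp2 (-0.79). It was -0.68 for Bhlhe41 (-0.73), -0.55 for Bhlhe40 (-0.57) and -0.51 for Hlf (-0.47). Nfil3 alone had a positive value, 0.61 (0.59). For Noct r was -0.15 (-0.14). Thus 8 of 9 members had a negative value, that of Noct being close to zero. All points share a library with their Arntl value and so its scaling.

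**Figure D3:**
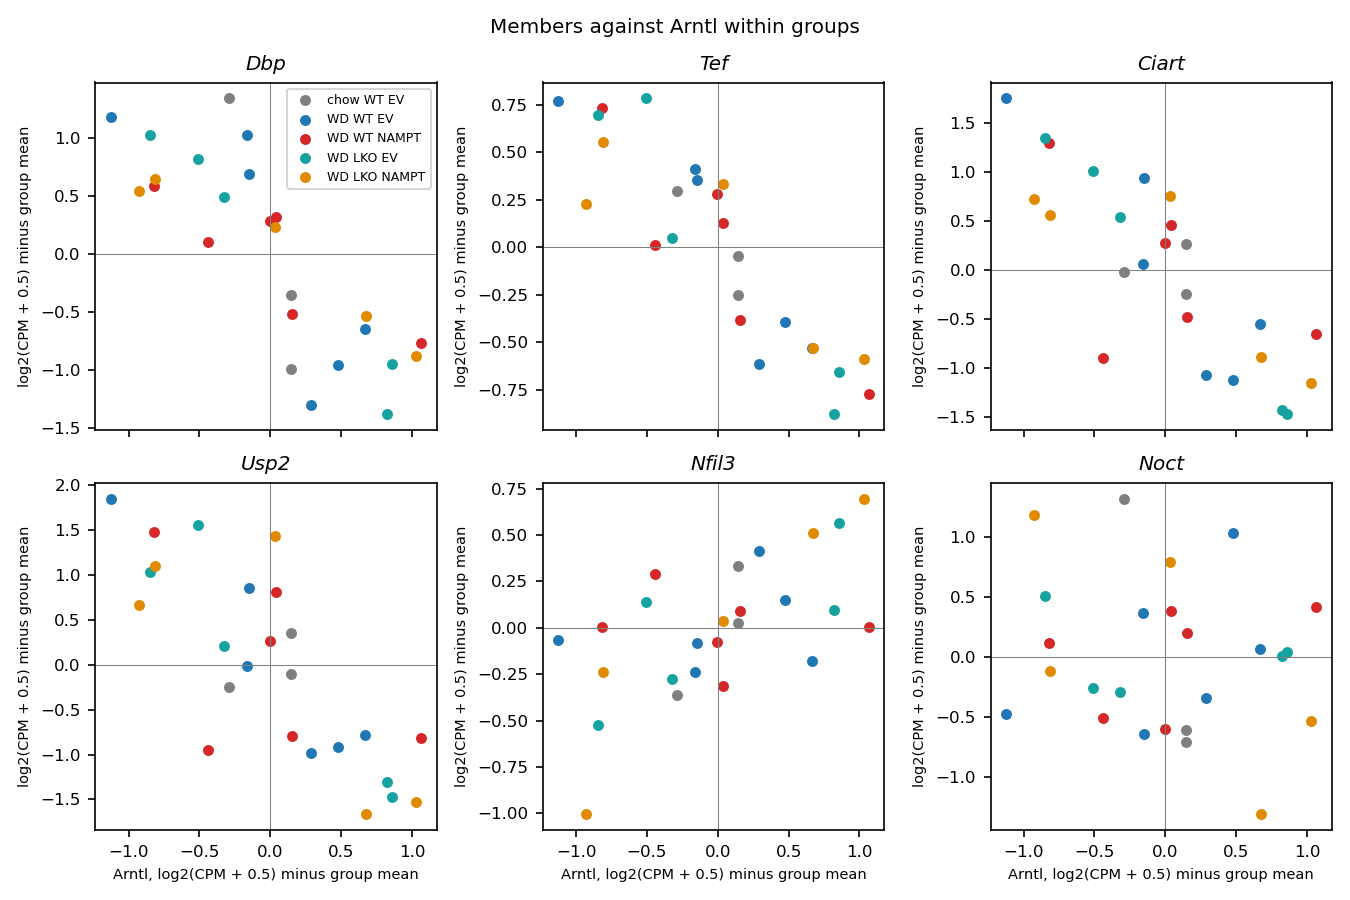
Log2(CPM + 0.5) of 6 members against that of Arntl, each minus its group mean, for the 25 libraries coloured by group. Dbp, Tef, Ciart and Usp2 fall as Arntl rises (r from -0.90 to -0.80), Nfil3 rises with it (0.61), and Noct has no clear slope (-0.15).

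The relations were also taken in the groups of 6. In WD WT EV livers r with Arntl was -0.91 for Tef, -0.93 for Usp2, -0.90 for Ciart and -0.81 for Dbp. In WD WT NAMPT livers it was -0.89 for Tef, -0.84 for Dbp, -0.54 for Usp2 and -0.54 for Ciart. Noct was at 0.50 and 0.43 in these groups, opposite in sign to its value over all libraries, and Nfil3 at 0.25 and -0.20. Without the pair of libraries farthest from the median of Arntl (WD WT EV replicate 7 and WD WT NAMPT replicate 2), r was -0.87 for Tef, -0.80 for Dbp, 0.69 for Nfil3 and -0.30 for Noct.

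Between members, the closest pair was Ciart and Usp2 with r = 0.95 over the 25 libraries, followed by Dbp and Tef (0.92), Tef and Ciart (0.91) and Tef and Usp2 (0.89). Nfil3 was negative with each other member, from -0.64 with Dbp to -0.09 with Hlf. Noct was weakly related to the other members, between -0.15 and 0.23, except for Nfil3 at -0.57. The E-boxes shown above are in windows of Tef, Ciart and Bhlhe41, whose mutual r was 0.78 to 0.91, and Dbp and Usp2, with none of the 5 motifs in their windows, had r of 0.92 and 0.89 with Tef.

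**Figure D4:**
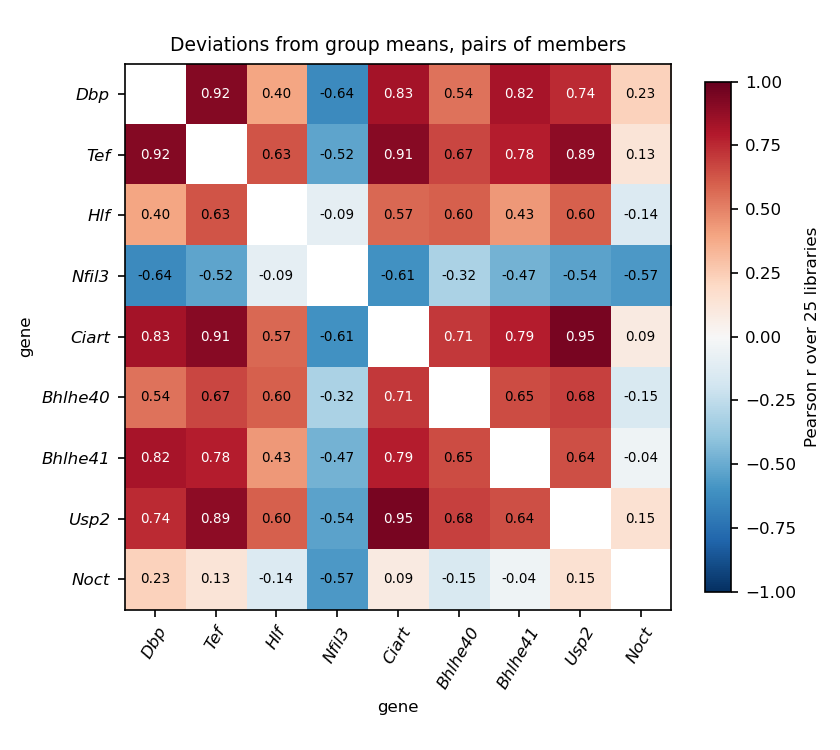
Pearson r between deviations from group means for each pair of the 9 members, over 25 libraries. Dbp, Tef, Ciart, Bhlhe41 and Usp2 form a block of high positive values (0.64 to 0.95), Nfil3 is negative with all members, and Noct is between -0.15 and 0.23 with all members but Nfil3.

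Among 13782 genes with an average above 1 CPM, those whose deviations followed each member most closely were sought by Spearman's rho over the 25 libraries, as a description. The nearest to Tef was the clock gene Per3 (0.94), to Usp2 Coq10b (0.92), to Ciart the transcription factor gene Klf13 (0.92), to Hlf the carbonic anhydrase gene Car3 (0.90) and to Dbp Gpd1l (0.86). For Bhlhe40 it was the kinase gene Map2k6 (0.85), for Bhlhe41 Bmf (0.85) and for Nfil3 the phosphodiesterase gene Pde9a (0.76). The most opposed was Asap2 for both Usp2 (-0.94) and Ciart (-0.93). Clic1 was the most opposed to Hlf (-0.91), Ccl4 to Bhlhe40 (-0.82), Tnfaip1 to Bhlhe41 (-0.81) and Sipa1l2 to Nfil3 (-0.73). Ccl4 was low, at a mean of 0.65 CPM.

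The nearest genes to Noct were others. Among the 10 nearest were Tent5a (0.78), Hacd4 (0.71), Cfl1 (0.70), Fkbp15 (0.70), Cysltr1 (0.69), Aph1b (0.69), Nek3 (0.67), Mapre2 (0.67) and Trim62 (0.67). The most opposed were Prrc1 (-0.80), Cdipt (-0.73), Cib2 (-0.72), Gosr2 (-0.72) and Chadl (-0.72). None of these is on the list of core clock genes.

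In GRCm38, Noct lies on chromosome 3 (51224447 to 51251644) with Ciart (95878503 to 95882251), and Bhlhe40 (108660629 to 108666925) and Bhlhe41 (145858243 to 145865558) lie on chromosome 6. Dbp is on chromosome 7 (45705088 to 45710155), Usp2 on 9 (44067021 to 44095627), Hlf on 11 (90336536 to 90390895), Nfil3 on 13 (52967209 to 52981073) and Tef on 15 (81802421 to 81826861). Counts were summed over the exons of each gene. Exons of 4 members overlap those of a gene on the other strand: Dbp with Sphk2 over 491 bases, Usp2 with Rnf26 over 200 bases, Tef with Gm17597 over 193 bases and Bhlhe40 with 0610040F04Rik over 118 bases. Strand use in the counting is not given in the sources used here, so counts in those bases cannot be assigned to 1 gene.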

How the data were processed

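Per the labels, total RNA was isolated from liver with Trizol and libraries were primed with oligo-dT. The authors aligned reads to GRCm38 with STAR 2.5.1a and counted them per gene with featureCounts 1.4.6-p5, as the submitters' processing notes name them. The deposited files hold raw counts, CPM and RPKM per Ensembl gene, and the deposited CPM and RPKM were recomputed from the counts to a relative deviation of at most 5.9e-14, so only counts were used further. Symbols came from gene names paired by identifier (40254 of 41388 matched). The study's design was followed: genes above 1 CPM in at least 2 libraries were kept, 4 ribosomal RNA genes were left out, counts were scaled by TMM (edgeR 4.0.16), and limma 3.58.1 with voom and sample quality weights was fitted in R 4.3.3 with 1 mean per group over all 25 libraries. A pseudocount of 0.5 CPM was used for deviations on the log2 scale. Calls used an adjusted p of 0.05 over 14065 genes. The method was tested on simulated data. Alternatives were the edgeR quasi-likelihood test, DESeq2 1.42.0, no quality weights, library size alone, no filter, a replicate block, only the groups compared, Arntl as a covariate, another control group and leaving out each library. The members and gene lists were chosen with earlier results of these data known. All members and Arntl are named. Listed genes could be named where called, at most 4 per list by size and not in each comparison, and for likeness the 10 highest and 5 lowest for Noct and 1 of each for the other members. A few genes that this rule names are not reported here. Replicates are separate mice by their labels. No library was a copy of another of its group: counts of each pair within a group differed by at least 15.62 times the chi-square that counting noise alone gives. Pairs across groups were not compared.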

Additional observations from a re-analysis of the deposited data

How the results depend on the processing

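Counts of called members between the WT vectors (3 as reported) were 1 without sample quality weights and 1 without the filter on low counts, both times Noct, beside 192 of 14065 and 524 of 29119 genes called against 1890 of 14065 as reported, and 0 to 3 over the fits that left out 1 library. Between WD LKO NAMPT and WD WT NAMPT (1 as reported) they were 0 with the edgeR quasi-likelihood test, DESeq2, no quality weights, library size alone, no filter, the replicate block and only the groups compared, and 0 to 2 with a library left out. Calls over all genes fell there too, from 1120 to 45, 294, 38, 840, 120, 412 and 12 in that order. For diet (4 as reported) DESeq2 called 7, beside 1745 genes against 3101 as reported, and leaving out a library gave 2 to 5. For the interaction (0 as reported) the fit with Arntl as a covariate called 1, Hlf, beside 563 genes against 1 as reported, leaving out a library gave 0 to 1, and DESeq2 gave no adjusted p for any member. The other counts were within 1.5 times those reported. Dbp, called for diet, had an adjusted p of 0.0578 without quality weights (limma). With library size alone, 88.1% of all genes called between the WT vectors were higher against 57.1% as reported, 24.3% against 52.5% between the NAMPT groups, and 32.6% against 45.6% for diet.

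Values that changed sign in the 4 comparisons without an interaction or both NAMPT groups, in log2 units, belonged to members not called in the reported fit, and the cause was not tested. In the other 2 comparisons the printed values of Noct and Hlf kept their sign in each fit. Between the WT vectors, Arntl as a covariate gave -2.30 for Ciart, -1.996 for Usp2 and -1.03 for Tef, past the threshold there, and -0.86 for Dbp, -1.21 for Bhlhe41 and -0.39 for Bhlhe40, not called. For the NAMPT vector in LKO livers, Noct was 0.28 with edgeR, 0.27 with DESeq2 and 0.039 without quality weights, and Usp2 was -0.038 without the filter. With Arntl as a covariate the values there were -0.56 for Dbp, -0.45 for Tef, -0.056 for Hlf, -0.10 for Bhlhe40, -0.85 for Bhlhe41 and -1.07 for Usp2. Leaving out a library gave -0.34 to 0.051 for Noct, -0.094 to 0.41 for Tef, -0.66 to 0.16 for Ciart and -0.63 to 0.62 for Usp2. For genotype under the empty vector, Hlf was -0.0055 with edgeR, -0.0051 with DESeq2 and -0.0049 without quality weights. With Arntl as a covariate the values were -0.12 for Dbp, -0.17 for Tef, -0.11 for Hlf, 0.074 for Nfil3 and -0.050 for Usp2. Leaving out a library gave -0.052 to 0.089 for Hlf, -0.22 to 0.069 for Bhlhe40 and -0.50 to 0.56 for Bhlhe41. For diet, Noct was 0.24 with WD LKO EV in place of WD WT EV, and Usp2 was -0.045 with Arntl as a covariate.

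Deviations of same-numbered mice had no common direction (36 correlations from -0.38 to 0.42, 14 over 0.1). Whether the numbers pair the mice was not settled by this, and a block that crosses the numbers would not show in it. A replicate block gave 2 called members between the WT vectors, 4 for diet and 0 in the other comparisons, and turned the genotype values of Bhlhe40 to 0.076 and of Bhlhe41 to 0.93. Chow had 3 libraries, and low counts of Ciart and Bhlhe41 limit its comparison.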
